A study of Bos taurus with 32 samples.

Results

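Intercaruncular endometrium (ICAR), the gland-bearing lining between the caruncles of the bovine uterus, was compared between the horn on the side of the corpus luteum (ipsilateral) and the opposite horn (contralateral) of the same cow. The 16 ICAR arrays of the 32 in the series were used, which gave 8 pairs of horns: 4 pairs from non-RB cows and 4 from repeat breeder (RB) cows. All animals were adult, non-lactating Japanese Black cows on Day 15 of the oestrous cycle. The RB cows came into oestrus and had a uterus and ovaries that were healthy on examination, but had repeatedly failed to conceive to insemination. The non-RB cows had conceived, after which the pregnancy was ended with a prostaglandin F2α analogue and regular cycles returned. Tissue was taken at slaughter from the middle of each horn, after the caruncles had been removed, so each array holds RNA of the whole ICAR strip with its luminal and glandular epithelium, stroma, vessels and leukocytes. In such bulk tissue, fewer cells of a type and less RNA per cell cannot be told apart. Horns were paired by group and by the number in the sample label, which the labels do not state to be the animal, and the pairing was therefore checked in the data.

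The uterine glands of the ICAR secrete the histotroph, a mixture of proteins, lipids and ions that feeds the conceptus before it attaches, whereas the caruncles (CAR) later form the maternal side of the placentomes. Progesterone from the corpus luteum reaches the uterus through the general circulation and also by local transfer from the utero-ovarian vein to the uterine artery of the same side, so that the ipsilateral horn can receive more of the hormone. The conceptus of the cow usually lies in that horn. The comparison asks which transcripts of the glandular endometrium differ between the horns of one animal, and whether the horns of RB and non-RB cows differ alike.

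Each array measured 1 sample in 1 colour, and levels are given as log2 of the signal relative to the 75th percentile of the same array, so that a difference of 1 is a 2-fold difference. Differences are always ipsilateral minus contralateral. The share of probes whose signal was well above background ranged from 74.3% to 85.72% by array. A total of 12868 probes reached this on at least 4 of the 16 arrays, were measured in enough pairs and were tested. The arrays lay on 6 slides, with 7 of the 8 pairs on the same slide and scanned together. The pair of non-RB 1 lay on slides 3 and 1. In 8 of 8 pairs the contralateral sample occupied a higher array column than the ipsilateral sample, so horn and position on the slide cannot be told apart. The p-values below measure the spread between these 8 cows.

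The horns of one cow were alike, with a correlation over probes of 0.944 to 0.994, and the size of their differences varied strongly between cows. The SD of the horn difference over all tested probes was 1.1, 0.80, 0.58 and 0.38 in non-RB 1 to 4 and 0.58, 0.39, 0.82 and 0.41 in RB 1 to 4. In non-RB 1, 26% of the probes differed more than 2-fold between the horns, against 3% in non-RB 4 and 2.46% in RB 2. The contralateral array of non-RB 1 also held 100 outlier spots, where the median array held 3. The ipsilateral array of non-RB 2 held 25 outlier spots. The SD over 100 copies of the same probe was 0.54 there, against a median of 0.16 and 0.87 on the contralateral array of non-RB 1. The pair of non-RB 1 stood furthest apart from the others. Of the 79 values of named genes in the 4 comparisons within ICAR, 12 moved by more than 1.5 times or changed sign without it, all of them over all 8 cows and none among the 23 leading genes, and the values the text turns on are given beside the results. The cows did not share a common direction either. Correlations between the horn differences of 2 cows ran from -0.62 (non-RB 3 with RB 3) to 0.38 over the 28 pairs of cows, with a median of -0.000144, as a description over probes that are not independent. For the median probe, the SD between the horns of a cow was 0.36 and that between cows of a group 0.40.

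**Figure D1:**
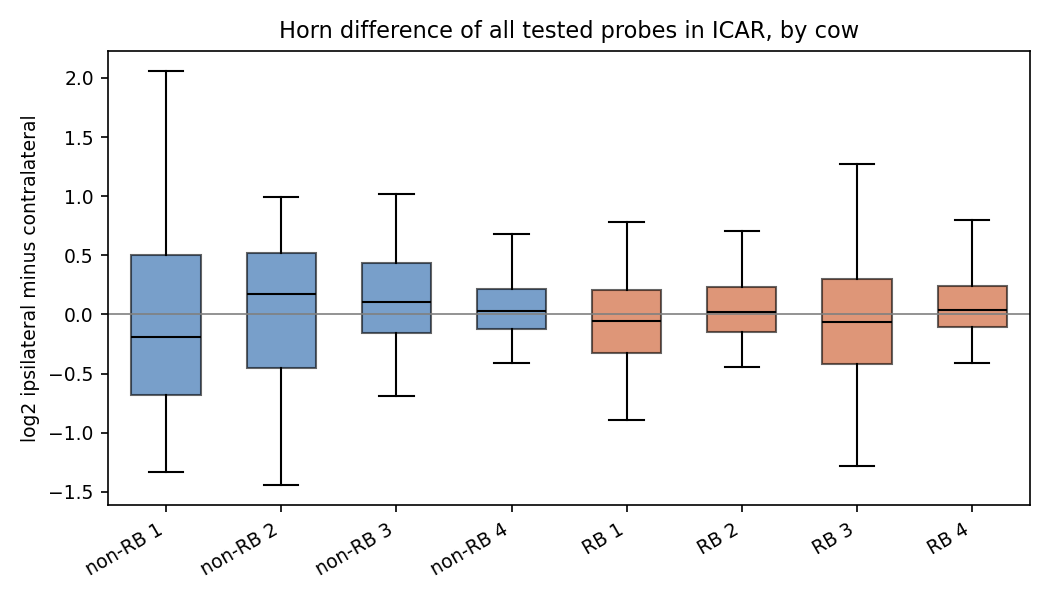
Horn difference (log2 ipsilateral minus contralateral) of all 12868 tested probes in ICAR, 1 box for each cow, with the median as a line, the middle 50% of probes as the box and the 5th to 95th percentile as whiskers. Non-RB 1 has the widest spread (SD 1.1) and non-RB 4 the narrowest (SD 0.38), and the medians lie between -0.19 and 0.18.

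Over all 8 cows no probe differed between the horns after adjustment. limma with each cow as a block and Benjamini-Hochberg adjustment called 0 of 12868 probes (0%) at an adjusted p of 0.05, and the smallest adjusted p was 0.998. At an unadjusted p of 0.05, 277 probes were higher (2.15%) and 66 lower (0.513%) in the ipsilateral horn, a total of 343 where 643 would be reached by chance. Under quantile normalization the split of probes at this p was 173 higher and 169 lower. It was 40 higher and 48 lower under normexp background correction with all cows, and 1556 higher and 186 lower under the same correction without non-RB 1. The excess of higher over lower probes thus depends on the scaling, the background correction and this pair. The 95% interval of the median probe reached 0.38 to either side of its estimate, which leaves room for differences of about that size. This interval is not adjusted for the number of probes, so larger differences could also go uncalled. Without non-RB 1 the number at this p was 897 (719 higher and 178 lower), without RB 2 it was 175 and without RB 4 it was 223, again with 0 called. The methods' t-test gave 0 called and 75 at this p. When the arrays of cows with a wide spread were given less weight, 187 probes passed the adjusted threshold, 182 higher and 5 lower. The weights ran from 0.152 for non-RB 1 to 6.21 for RB 2, and 8 of the 23 leading genes described next were among those probes, namely ABCB1, MLX, RHBDD3, SLC26A10, GMEB1, EPN1, JUN and FARP2, at adjusted p-values of 0.0471 to 0.0487.

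A direction shared by every cow was uncommon. Of the 12712 probes measured in all 8 pairs, 46 (0.362%) were higher in the ipsilateral horn in 8 of 8 cows and 29 (0.228%) were lower in 8 of 8. The genes named next were taken by rank of the unadjusted p, up to 12 in each direction, and are descriptions of the leading end of the comparison. None passed the threshold with the cows weighted alike, the limma adjusted p was 0.998 for each of them, and the exact sign-flip permutation test of a single gene over 8 cows cannot go below 0.00781 (2-sided).

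The multidrug transporter had the smallest p among probes with a gene symbol, and ranked 3 over all probes. ABCB1 encodes P-glycoprotein, an ATP-driven pump of the apical membrane that exports lipophilic compounds, steroids among them, and MDR1 is an older name of the same gene. The array carries a probe under each name, and both ranked among the 12 leading genes, where they are counted separately. Their sequences are shown to let a reader place them on the transcript. They are written 5′ to 3′ in lower case as listed for the array, and their position in the genome was not determined here.
ABCB1: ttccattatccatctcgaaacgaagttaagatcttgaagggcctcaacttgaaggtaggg
MDR1: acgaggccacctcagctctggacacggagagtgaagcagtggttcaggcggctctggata
The longest run of bases that both probes share is 5, so they read separate stretches.

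With the ABCB1 probe, levels ran from -6.90 through a median of -6.18 to -5.16 in the ipsilateral horn and from -7.68 through -6.90 to -6.01 in the contralateral horn. The horns overlapped between cows, whereas within a cow the ipsilateral level was higher in 8 of 8. The 8 differences were 1.46, 0.93, 0.78 and 0.65 in non-RB 1 to 4 and 0.08, 0.35, 0.25 and 0.86 in RB 1 to 4. Their mean was 0.67 ± 0.14 (SE, n = 8 cows), a 1.59-fold difference with a 95% interval of 0.36 to 0.98 on the log2 scale (exact permutation p = 0.00781, limma adjusted p = 0.998). Without non-RB 1 it was 0.59. The MDR1 probe read -3.97 to -2.30 (median -3.16) in the ipsilateral and -4.80 to -2.85 (median -3.49) in the contralateral horn. It was higher in 7 of 8 cows, non-RB 3 being the exception at -0.12, with a mean of 0.57 ± 0.17 (SE), or 0.43 without non-RB 1. A further ABCB1 probe differed from both, with 0.16 ± 0.20 (SE) and a higher level in 4 of 8 cows. In CAR of the same 8 cows the ABCB1 probe gave -0.10 ± 0.25 (SE) and MDR1 -0.12 ± 0.26 (SE). The CAR values here and below include the contralateral CAR array of non-RB 2, which held 351 outlier spots. The difference between the compartments was 0.77 ± 0.25 (SE) for ABCB1 and did not pass (limma adjusted p = 1).

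ARHGAP42, a GTPase-activating protein, was also higher in 8 of 8 cows. Its levels were -5.92 to -4.40 (median -5.48) in the ipsilateral and -6.49 to -4.94 (median -5.89) in the contralateral horn, so the horns overlapped between cows. The differences ran from 0.02 in RB 3 to 0.72 in non-RB 3, with a mean of 0.41 ± 0.11 (SE, 1.33-fold), and the mean was 0.53 in non-RB and 0.29 in RB cows. In CAR it was -0.03 ± 0.27 (SE). These genes differed by less than 2-fold on average.

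JUN, a subunit of the AP-1 transcription factor that is induced within minutes by many stimuli, was measured with the probe
JUN: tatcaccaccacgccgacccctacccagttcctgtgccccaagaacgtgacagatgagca
whose horn difference separated by group. It was 1.30, 1.03, 1.84 and 1.04 in non-RB 1 to 4 and -0.89, 0.33, -0.16 and 0.92 in RB 1 to 4. All 4 non-RB cows thus lay above all 4 RB cows, with a mean of 1.30 against 0.05. The difference between the groups was -1.25 ± 0.39 (SE) and did not pass (limma adjusted p = 0.615). Of the 14 tested immediate early and stress genes, JUN alone had an unadjusted p under 0.05 over all cows, and FOS, the partner of JUN in AP-1, differed by 0.00 ± 0.29 (SE).

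**Figure D2:**
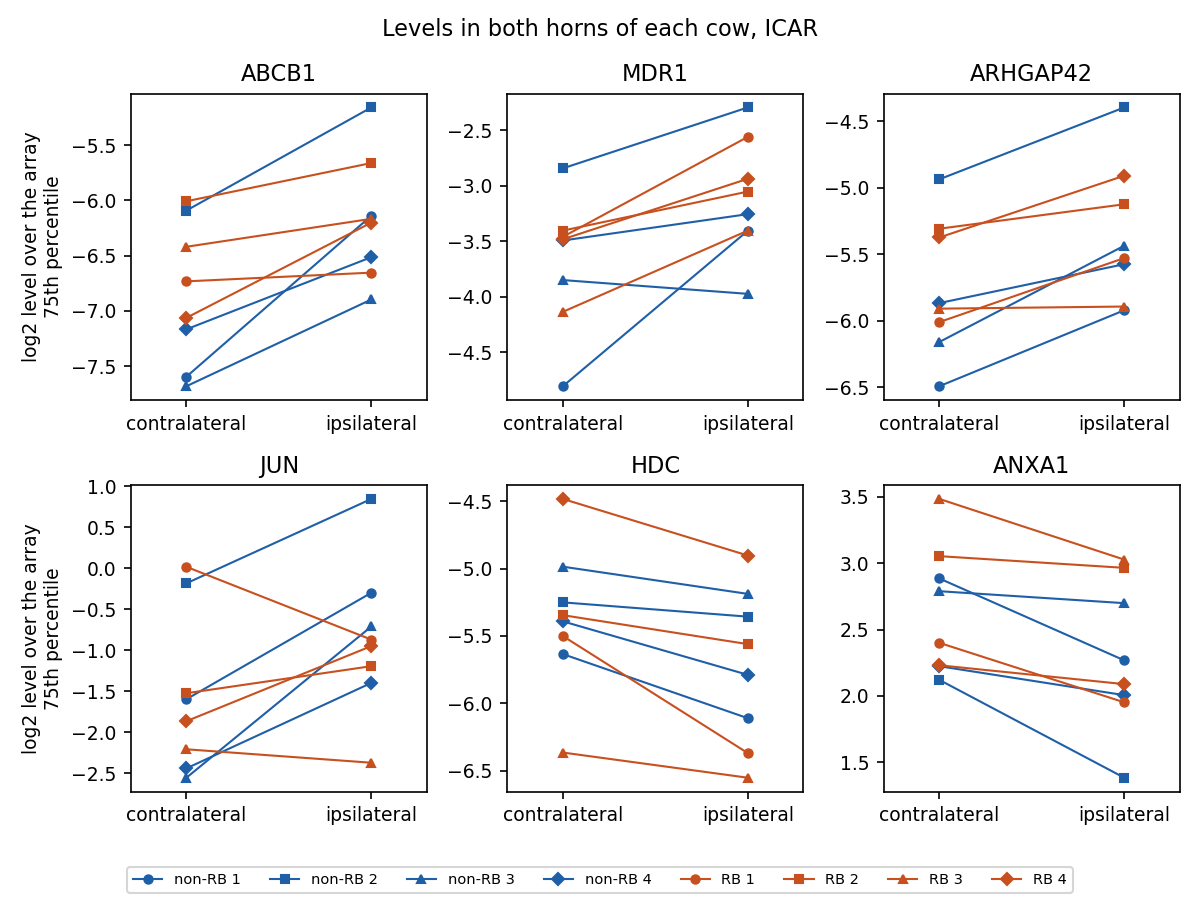
Level of 6 leading genes in both horns of each cow (log2 over the array's 75th percentile), 1 line for each cow, blue for non-RB and orange for RB. ABCB1 and ARHGAP42 lines climb towards the ipsilateral horn in 8 of 8 cows and HDC and ANXA1 lines descend in 8 of 8, while JUN climbs in 4 of 4 non-RB and 2 of 4 RB cows.

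The other leading genes on the higher side had varied roles. MLX, a partner of the glucose-sensing factor MondoA, differed by 0.58 ± 0.15 (SE) and was higher in 7 of 8 cows, with RB 1 at -0.28. GMEB1, which binds the glucocorticoid modulatory element, was 0.65 ± 0.18 (SE) with 1.87 in non-RB 1 and at most 0.83 elsewhere, and without that cow 0.50. EPN1, an adaptor of clathrin-coated vesicles, was 0.41 ± 0.12 (SE), and FARP2, a guanine nucleotide exchange factor, 0.54 ± 0.16 (SE). RHBDD3 was 0.50 ± 0.13 (SE), with 0.083 ± 0.12 (SE) from its other probe, and ILRUN 0.89 ± 0.26 (SE), the latter well above background on 4 of 16 arrays. SLC26A10, a member of the anion transporter family, was 0.59 ± 0.16 (SE), carried by the non-RB cows (1.15 against 0.04 in RB cows), and was likewise dim. Several of these probes are close to background, and their values depended on its correction. Under normexp background correction ABCB1, ARHGAP42, SLC26A10 and ILRUN lost their direction, with means of 0.00, -0.016, -0.10 and -0.030, because the pair of non-RB 1 moved far down (ABCB1 from 1.46 to -2.29). With the same correction and non-RB 1 left out, 11 of 11 leading genes described on this side had an unadjusted p under 0.05. Of all probes, 12.1% were higher at this p. Of the 12 genes on the lower side 5 had, beside 186 of 12868 probes that were lower. These counts are no new test, because the genes were chosen by their p in the same cows. The setting, too, was chosen after seeing the data. Under it the means of ABCB1, ARHGAP42, SLC26A10 and ILRUN were 0.35, 0.32, 0.30 and 0.35.

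On the lower side, ANXA1 and HDC were the leading genes with the same direction in 8 of 8 cows. ANXA1, annexin A1, mediates part of the anti-inflammatory action of glucocorticoids. Its levels were 1.38 to 3.03 (median 2.18) in the ipsilateral and 2.12 to 3.48 (median 2.59) in the contralateral horn. The differences lay between -0.74 in non-RB 2 and -0.09 in RB 2 and non-RB 3, with a mean of -0.35 ± 0.12 (SE, 1.27-fold lower). HDC makes histamine from histidine and is a hallmark of mast cells. It read -6.55 to -4.90 (median -5.67) in the ipsilateral and -6.37 to -4.48 (median -5.37) in the contralateral horn, a mean difference of -0.36 ± 0.12 (SE, 1.28-fold lower) that ran from -0.87 in RB 1 to -0.11 in non-RB 2. For both genes the exact permutation p was 0.00781, the smallest that 8 cows allow, and the limma adjusted p 0.998. In CAR the differences were -0.18 ± 0.21 (SE) for ANXA1 and -0.076 ± 0.21 (SE) for HDC.

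CHGB, a granin of neuroendocrine secretory granules, was -0.90 ± 0.26 (SE) over all cows. It was lower in 4 of 4 RB cows (-1.37, -0.92, -2.29 and -1.22) and mixed in non-RB cows (-1.63, 0.15, 0.82 and -0.76). Without non-RB 1 the mean was -0.69 over all cows and 0.070 in non-RB cows. CHGB was well above background in 4 of 4 contralateral but 1 of 4 ipsilateral RB samples. MMP3, stromelysin 1, which cleaves several matrix proteins, was -0.87 ± 0.27 (SE) and lower in 7 of 8 cows, with -2.46 in non-RB 2 and 0.02 in non-RB 1, and its other probe was not above background on any array. Both genes had wide ranges, so that a few cows set their means. The serotonin transporter SLC6A4 was -0.58 ± 0.20 (SE), the stearoyl-CoA desaturase SCD -0.48 ± 0.18 (SE) with -1.70 in non-RB 2, and the lysosomal protease LGMN (legumain) -0.35 ± 0.13 (SE). SRPX2, an extracellular protein, was -0.56 ± 0.20 (SE), the ribonuclease RNASE6 -0.31 ± 0.11 (SE), and the red cell membrane protein EPB42 -0.61 ± 0.23 (SE). BZW2 at -0.60 ± 0.21 (SE) and MAEL at -1.12 ± 0.37 (SE) were dim, MAEL being well above background on 4 of 16 arrays. Under normexp background correction with non-RB 1 left out, SLC6A4, BZW2 and EPB42 turned to 0.090, 0.16 and 0.058. CHGB, MMP3, MAEL and HDC came close to 0 under this setting, at -0.0059, -0.12, -0.077 and -0.067, while ANXA1, SRPX2, SCD, LGMN and RNASE6 were at -0.32, -0.42, -0.50, -0.40 and -0.31.

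**Figure D3:**
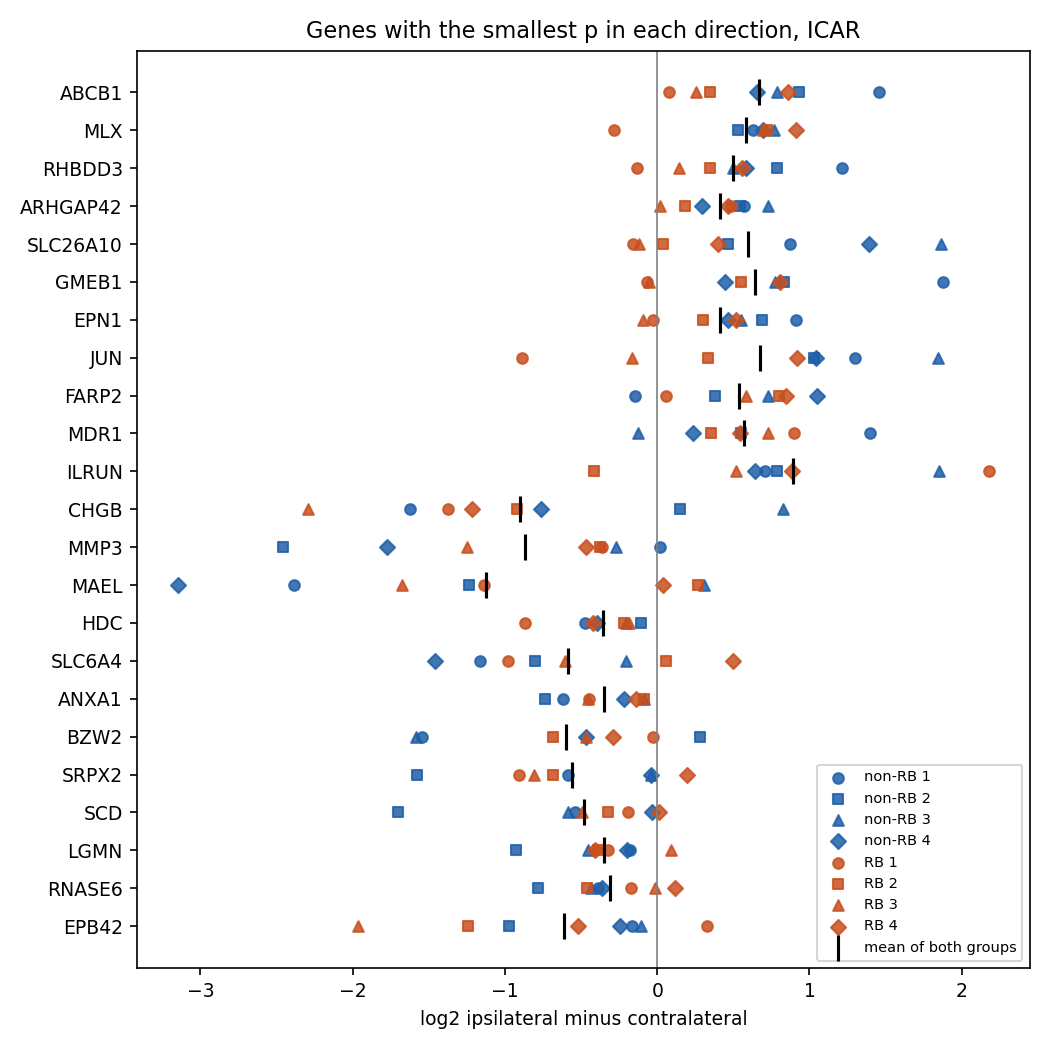
Horn difference of the 23 leading genes over all 8 cows (log2 ipsilateral minus contralateral), 1 point for each cow, blue for non-RB and orange for RB, with the mean of both groups as a black bar. ABCB1 and ARHGAP42 lie above 0 and HDC and ANXA1 below 0 in 8 of 8 cows, and MAEL spreads widest, from -3.15 in non-RB 4 to 0.31 in non-RB 3.

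Receptors for progesterone, oestradiol and oxytocin, which set the response of the endometrium through the cycle, showed no call. Of 8 tested members 0 were called and 0 had an unadjusted p under 0.05 in limma, and the median difference was 0.058 beside 0.017 over all probes. The nuclear progesterone receptor PGR was -0.11 ± 0.11 (SE) and lower in 6 of 8 cows, from -0.36 in non-RB 2 to 0.20 in non-RB 3. The oestrogen receptor ESR1 was -0.04 ± 0.35 (SE) with values from -1.83 to 1.71 and a mean of 0.31 without non-RB 1, and the oxytocin receptor OXTR was -0.01 ± 0.28 (SE). The interval of PGR is thus narrow and that of ESR1 wide. These values are over all 8 cows. For the horn difference in RB minus that in non-RB cows, 2 of the 8 members were higher at this p, beside 4.06% of all probes. Without non-RB 1, 1 was higher and 1 lower.

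Over all 8 cows, 0 of 23 tested genes known to respond to progesterone in ruminant endometrium were called. Of them 0 had an unadjusted p under 0.05, and the median was -0.12. SERPINA14, uterine serpin, a major secretion of the glands, differed by 0.69, -4.17, 0.93 and -0.01 in non-RB 1 to 4 and by 0.00, -0.83, 1.53 and 0.09 in RB 1 to 4, a mean of -0.22 ± 0.53 (SE), or -0.44 without non-RB 1. The Wnt-regulated homeobox gene MSX1 was 0.16 ± 0.28 (SE), the activin-binding protein FST -0.12 ± 0.18 (SE), and the matrix protein SPP1, osteopontin, -0.27 ± 0.30 (SE). IGFBP1, which binds IGF and is used as a marker of progesterone action in ruminants, was -0.63 ± 0.39 (SE) over the 7 cows measured in both horns, non-RB 1 being without a value. With such spread, horn differences of less than about 2-fold in SERPINA14 or IGFBP1 were not detectable in 8 cows. In RB minus non-RB, 4 of the 23 were higher and 0 lower at an unadjusted p under 0.05, beside 4.06% and 3.82% of all probes. Without non-RB 1, 1 was higher and 1 lower.

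Over all 8 cows, prostaglandin enzymes, transporters and receptors (19 tested) had 0 called and 0 at an unadjusted p under 0.05. Their median was 0.0097. PTGS2, the inducible cyclooxygenase, was -0.20 ± 0.29 (SE), the prostaglandin F synthase AKR1B1 0.22 ± 0.28 (SE), the transporter SLCO2A1 0.21 ± 0.23 (SE), and the prostacyclin synthase PTGIS -0.38 ± 0.18 (SE) with a lower level in 7 of 8 cows. The IGF ligands, receptors and binding proteins (12 tested) likewise had 0 called and 0 at this p. IGF2 had the highest value of the family at 0.52 ± 0.32 (SE), from -1.19 in RB 1 to 1.72 in non-RB 3, and IGF1 was -0.02 ± 0.28 (SE). Without non-RB 1, 2 of the 12 IGF genes were higher at this p, beside 5.59% of all probes. In RB minus non-RB, 3 of the 19 prostaglandin genes were higher and 1 lower at this p, beside 4.06% and 3.82% of all probes. Without non-RB 1 these counts were again 3 and 1.

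No other list had a called member either. Interferon response genes (18 tested, median 0.032), angiogenic and vascular genes (21, 0.087), glucose and amino acid transporters (15, 0.065), MHC genes (12, 0.13), oxidative phosphorylation genes (24, -0.028), cell cycle genes (11, -0.064) and gland and histotroph genes (12, 0.082) each had 0 at an unadjusted p under 0.05. ISG15, the ubiquitin-like modifier induced by interferon tau in pregnancy, was 0.00 ± 0.14 (SE). Extracellular matrix genes (16) had COL6A2, a chain of collagen VI, at 0.50 ± 0.22 (SE), with 2.31 in non-RB 1, and 0.26 without that cow. Matrix proteases and inhibitors (17) had MMP3. Over all probes, 2.15% were higher and 0.513% lower at this p.

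Leukocyte markers held the largest counts over all 8 cows. Of 5 tested B and plasma cell markers 3 were higher at an unadjusted p under 0.05, and of 12 tested T and NK cell markers 4 were, beside 2.15% of all probes, with 0 called. JCHAIN, the joining chain of polymeric immunoglobulins, differed by 1.90, 0.82, 0.28 and 0.68 in non-RB 1 to 4 and by 5.35, 0.03, 1.09 and -0.14 in RB 1 to 4, a mean of 1.25 ± 0.54 (SE). IGHM, the heavy chain of IgM, was 0.86 ± 0.30 (SE) and higher in 7 of 8 cows, and IGG1C, the IgG1 heavy chain, 0.86 ± 0.32 (SE) and higher in 6 of 8. The B cell surface markers did not go with them, with CD79A at 0.21 ± 0.20 (SE) and MS4A1 at -0.42 ± 0.26 (SE). The summed level of the B and plasma list ran from -0.14 to 3.95 in the ipsilateral and from -0.85 to 3.27 in the contralateral horn, so the horns overlapped broadly between cows. Without non-RB 1, JCHAIN had 1.09 ± 0.61 (SE), IGHM 0.99 ± 0.32 (SE) and IGG1C 1.10 ± 0.28 (SE), and 2 of the 5 markers had an unadjusted p under 0.05. In CAR, IGHM was -0.052 ± 0.19 (SE) and the difference between compartments 0.91 ± 0.33 (SE), which did not pass (limma adjusted p = 1).

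Among the T cell genes, CD3D was 0.70 ± 0.27 (SE), CD3E 0.29 ± 0.13 (SE), CD2 0.40 ± 0.16 (SE) and CD4, the helper T cell co-receptor that macrophages may also carry, 0.50 ± 0.21 (SE). CD3D and CD3E are signalling chains of the T cell receptor complex, and each was higher in 7 of 8 cows. The highest CD3D, CD2 and CD4 values, 2.27, 1.52 and 2.22, were all those of non-RB 1. Without that cow CD3D was 0.46, CD3E 0.25, CD2 0.27 and CD4 0.29, and 3 of the 12 markers were higher at an unadjusted p under 0.05, beside 5.59% of all probes. Under normexp background correction CD3D turned to -0.0071 with all cows and was 0.33 without non-RB 1. The cytotoxic genes PRF1, at -0.53 ± 0.38 (SE), and GZMB, at -0.04 ± 0.18 (SE), and the cytotoxic T cell co-receptor CD8A, at 0.01 ± 0.18 (SE), did not share this direction. The summed T and NK level was 1.43 to 2.39 in the ipsilateral and 0.76 to 2.24 in the contralateral horn, and the list's median was above 0 in 6 of 8 cows. Macrophage markers (6 tested, median 0.080), endothelium (7, 0.15), smooth muscle (7, 0.064), stroma (7, 0.047), neutrophil (2, -0.25) and red blood cell markers (3, -0.0074) had 0 at this p. Luminal epithelium (7 tested, median 0.0027) had CLDN3, a tight junction claudin, at 0.62 ± 0.26 (SE). Without non-RB 1, 3 of the 7 endothelium markers were higher at this p, beside 5.59% of all probes, and 0 of the 7 luminal ones. Over all 8 cows, the list of luteal cell genes had 8 of 10 members above the filter, with a median of 0.072. Its summed level was 0.15 to 0.68 in the ipsilateral and 0.24 to 0.61 in the contralateral horn. Which cells these transcripts came from was not tested.

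**Figure D4:**
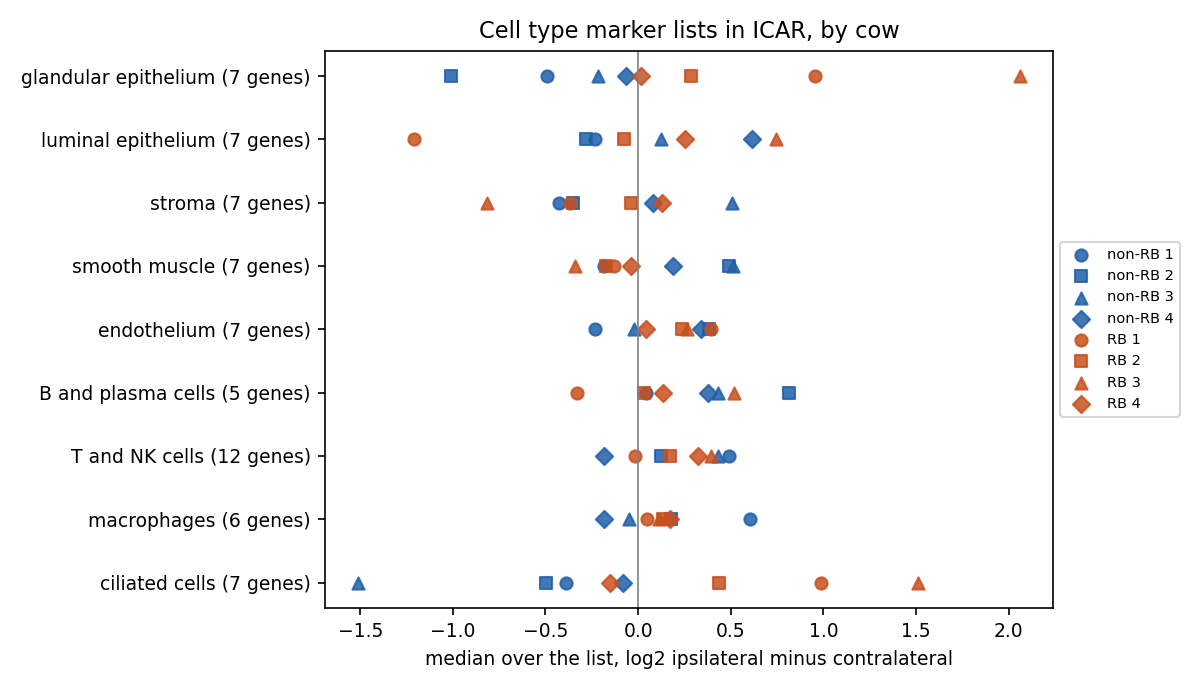
Median horn difference (log2 ipsilateral minus contralateral) over the tested members of 9 cell type marker lists, 1 point for each cow, blue for non-RB and orange for RB. The glandular list lies below 0 in 4 of 4 non-RB and above 0 in 4 of 4 RB cows, and the other lists overlap between the groups, with the ciliated list below 0 in 4 of 4 non-RB and above 0 in 3 of 4 RB cows.

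Taken group by group, limma called 0 of 12868 probes in the non-RB cows (0%, smallest adjusted p 0.641) and 0 in the RB cows (0%, smallest adjusted p 1). In the non-RB cows 697 probes were higher (5.42%) and 297 lower (2.31%) at an unadjusted p of 0.05, 994 in all. In the RB cows 322 were higher (2.5%) and 130 lower (1.01%), 452 in all. The split of higher and lower probes moved with the settings. Quantile normalization gave 501 higher and 444 lower in the non-RB cows and 252 higher and 170 lower in the RB cows, and centring each cow on its median gave 519 higher and 350 lower in the non-RB cows and 339 higher and 148 lower in the RB cows. Normexp background correction gave 153 higher and 227 lower in the non-RB and 180 higher and 41 lower in the RB cows, and without non-RB 1 it gave 2200 higher and 411 lower and 652 higher and 259 lower. Without non-RB 1 the non-RB cows had 1084 higher and 387 lower. Without non-RB 1 the RB count was 743, without RB 1 264, without RB 3 168 and without RB 4 699, the first because the groups share 1 estimate of the spread. The methods' t-test gave 0 called in both groups, and 92 and 180 at the unadjusted p. The array weights called 144 probes in the RB cows, 127 higher and 17 lower. With 4 cows an exact permutation p cannot go below 0.125.

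The leading genes of the non-RB cows on the higher side were ABCB1 (0.96), JUN (1.30), SLC26A10 (1.15), CD38 and IL22RA1, each higher in 4 of 4. IL22RA1, the epithelial subunit of the interleukin 22 receptor, was 1.70, 1.26, 0.76 and 0.73, with a mean of 1.11 against -0.06 in RB cows. The NAD-cleaving surface enzyme CD38 was 0.90, and a further CD38 probe gave -0.05 over all 8 cows. On the lower side were GOT1L1 (-1.14), a relative of aspartate aminotransferase, VDAC1 (-0.82), a channel of the outer mitochondrial membrane, the potassium channel subunit KCNAB1 (-1.04), TBATA (-0.83) and CMTM8 (-0.72), each lower in 4 of 4. GOT1L1 was well above background on 5 of 16 arrays and KCNAB1 on 8, and under normexp background correction without non-RB 1 their non-RB values were 0.072 and 0.23, and that of TBATA was -0.14. With normexp and all cows, SLC26A10, ABCB1, CD38 and IL22RA1 had -0.25, -0.20, -0.29 and -0.098 in the non-RB cows, and without non-RB 1 they had 0.56, 0.50, 0.50 and 0.66. On the deposited values without non-RB 1, ABCB1 was 0.79, JUN 1.31, SLC26A10 1.24, CD38 0.997 and IL22RA1 0.92.

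In the RB cows the scaffold protein AKAP5 was higher by 0.94, 0.88, 0.81 and 1.27 in RB 1 to 4, a mean of 0.98 against -0.22 in the non-RB cows. The small heat shock protein HSPB8 was 1.02, PRR5L, a partner of mTOR complex 2, 0.87, DRC1 1.36 and GOT1L1 1.02, all higher in 4 of 4. On the lower side, CHGB was -1.45, the muscle acetylcholine receptor subunit CHRNA1 -0.72, IQCF2 -1.06, carbonic anhydrase 2 (CA2), which interconverts carbon dioxide and bicarbonate, -0.57, and the acyl-CoA synthetase ACSL6 -1.03, all lower in 4 of 4. No adjusted p of these genes passed. Under normexp background correction 7 of these 10 values moved by more than 1.5 times, among them CHGB to -0.33, IQCF2 to -0.20, ACSL6 to -0.32, AKAP5 to 0.46 and GOT1L1 to 0.37, while HSPB8 was 1.01 and CA2 -0.56. With array weights AKAP5, HSPB8, PRR5L, DRC1 and CHRNA1 did, at adjusted p-values of 0.0171 to 0.0468.

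Whether the horns differed alike in both groups was tested as RB minus non-RB. limma called 0 of 12868 (0%), and no adjusted p was below 0.615. At an unadjusted p of 0.05, 522 probes were higher (4.06%) and 492 lower (3.82%), 1014 in all, and without non-RB 3, RB 1 or RB 3 there were 633, 530 and 453. The split was 426 higher and 155 lower under normexp background correction, 607 and 388 when each cow was centred on its median, 595 and 867 without non-RB 1, and 615 and 1143 under normexp without non-RB 1, so neither direction prevailed across settings. Of the 12712 probes measured in all pairs, 117 (0.92%) were lower in the ipsilateral horn of 4 of 4 non-RB and higher in that of 4 of 4 RB cows, and 79 (0.621%) had the reverse. The exact permutation p of 4 against 4 cows cannot go below 0.0286, which all genes with groups that did not overlap had.

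The named genes of opposite direction in the groups included DRC1 and BPIFB1. Of the 7 tested members each in the glandular and ciliated lists, 1 (BPIFB1) and 0 had this pattern in 8 of 8 cows. DRC1, part of the dynein regulatory complex of motile cilia, was read by the probe
DRC1: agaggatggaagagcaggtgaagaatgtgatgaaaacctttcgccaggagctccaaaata
and differed by -0.54, -1.63, -1.39 and -0.05 in non-RB 1 to 4 and by 1.39, 1.58, 2.25 and 0.22 in RB 1 to 4. The difference between the groups was 2.26 ± 0.49 (SE, limma adjusted p = 0.615), and the group means were 1.87-fold lower and 2.57-fold higher. GALNT6, an enzyme that starts mucin-type O-glycosylation, was -0.53, -0.73, -1.21 and -0.40 in non-RB cows and 1.53, 0.87, 2.33 and 0.08 in RB cows, a difference of 1.92 ± 0.45 (SE). BPIFB1, an antimicrobial secretory protein of mucosal glands, was -0.49, -0.56, -2.24 and -0.23 against 1.07, 0.86, 4.29 and 0.69, a difference of 2.61 ± 0.81 (SE). FMO2, a flavin monooxygenase, was -1.06, -1.003, -1.26 and -0.06 against 1.37, 0.68, 3.68 and 0.27, a difference of 2.35 ± 0.68 (SE). Without non-RB 1 the group differences were 2.38 for DRC1, 1.98 for GALNT6, 2.74 for BPIFB1 and 2.27 for FMO2. Under normexp background correction without non-RB 1 that of DRC1 was 0.99 and that of GALNT6 0.70. On the deposited values, in each of these 4 genes the 4 non-RB and 4 RB cows lay on opposite sides of 0. RB 3 was highest, and non-RB 4 and RB 4 lay nearest to 0 in their groups. Under normexp background correction BPIFB1 and FMO2 kept the split. DRC1 and GALNT6 lost it, with 0.12 in non-RB 4 for DRC1 and 0.0062 in non-RB 2 for GALNT6.

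The marker lists of these cell types hold further genes. The ciliated list had 10 members, of which 7 were tested, with FOXJ1, DNAH5 and PIFO left untested. Of 7 tested members of the glandular list 4 were higher in RB minus non-RB at an unadjusted p under 0.05. Of the 7 tested in the ciliated list 5 were, beside 4.06% of all probes, and 0 were called. Without non-RB 1 these counts were 3 and 5, beside 4.62% of all probes, and under normexp without non-RB 1 they were 3 and 3. The median of the glandular list was -0.49, -1.01, -0.22 and -0.067 in non-RB 1 to 4 and 0.95, 0.28, 2.06 and 0.017 in RB 1 to 4. That of the ciliated list was -0.39, -0.50, -1.51 and -0.079 in non-RB cows and 0.99, 0.44, 1.51 and -0.15 in RB cows. FOXA2, the transcription factor that gland formation requires, had a group difference of 2.24 ± 0.73 (SE), SPDEF, a factor of secretory epithelium, 2.17 ± 0.73 (SE), the iron-binding antimicrobial LTF 1.56 ± 0.67 (SE), and the ciliary genes RSPH1 1.88 ± 0.56 (SE), TEKT1 2.01 ± 0.65 (SE) and DNAI1 1.30 ± 0.37 (SE). The remaining list members did not all go with them: PIGR, the transporter of polymeric immunoglobulin, was -0.23 ± 0.77 (SE), TPPP3 -0.17 ± 0.36 (SE) and OVGP1 0.26 ± 0.48 (SE). Whether each member marks its cell type in this tissue was not tested. The summed glandular level ran from 1.68 to 4.04 in the ipsilateral and from 1.74 to 4.64 in the contralateral horn. The ciliated one ran from 1.52 to 3.07 and from 1.77 to 3.42. These sums cover the 7 members of each list that passed the filter. The part of the amount of gland in each strip in the group difference of BPIFB1, DRC1, GALNT6 and FMO2 was not tested. Over all 8 cows the glandular list had a median of 0.18 and the ciliated list one of 0.040, with 0 members at an unadjusted p under 0.05. Of 7 smooth muscle markers 1 was lower in RB minus non-RB at this p, beside 492 of 12868 probes. Without non-RB 1, 3 of the 7 were lower, beside 867 probes. Under normexp without non-RB 1 it was again 3, beside 1143 probes.

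**Figure D5:**
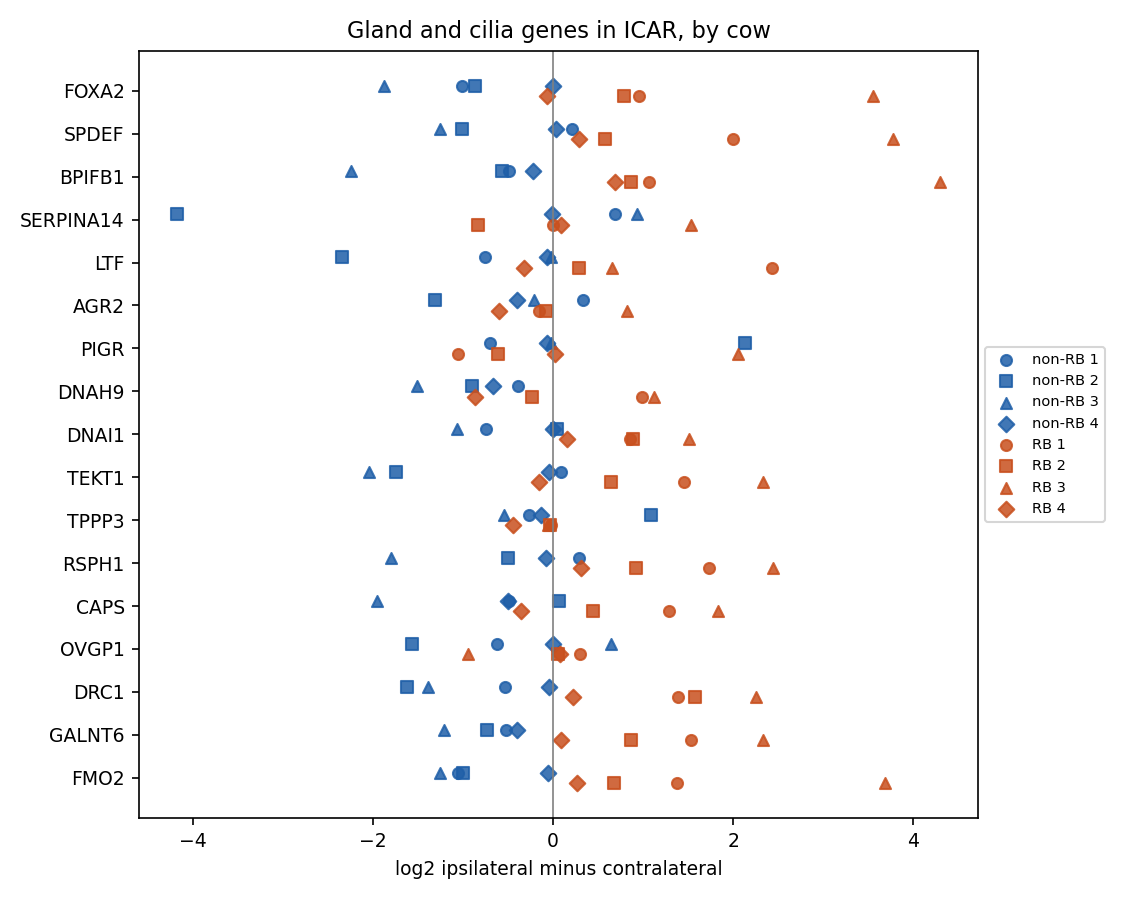
Horn difference (log2 ipsilateral minus contralateral) of the 7 tested members each of the glandular and ciliated lists and of DRC1, GALNT6 and FMO2. There is 1 point for each cow, blue for non-RB and orange for RB. BPIFB1, DRC1, GALNT6 and FMO2 lie below 0 in 4 of 4 non-RB and above 0 in 4 of 4 RB cows, while PIGR, TPPP3 and OVGP1 overlap between the groups.

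Further genes led the group difference by rank. GOT1L1 had 2.16 ± 0.34 (SE) and the smallest p of all probes, at a signal near background, and 0.30 under normexp background correction without non-RB 1. HSPB8 had 1.46 and CMTM8 1.25 on the same side. On the other side EGR1, an immediate early transcription factor, was higher in 4 of 4 non-RB (0.25 in non-RB 2 to 0.9995 in non-RB 1) and lower in 4 of 4 RB cows (-0.67 in RB 1 to -0.03 in RB 4), a difference of -0.90 ± 0.26 (SE) that turned to 0.20 under normexp background correction with all cows and was -0.47 without non-RB 1. TMUB1 (-1.09), AVPI1 (-1.25) and SEC23A (-1.13), a coat protein of vesicles leaving the endoplasmic reticulum, followed. GAPDH, a glycolytic enzyme often used for normalization, was represented by 102 tested probes, and the one with the smallest p gave -0.87 ± 0.24 (SE). The mean over its 100 identical copies was -0.52, with -0.23, -0.064, 0.48 and 0.53 in non-RB 1 to 4 and -0.66, -0.10, -0.56 and -0.026 in RB 1 to 4, so this transcript differed between horns by up to 0.66. HPGD, which inactivates prostaglandins and was singled out after its values were seen, had -0.81, -1.45, -0.84 and -0.13 in non-RB and 0.00, 0.98, 2.04 and 0.92 in RB cows, a difference of 1.79 ± 0.44 (SE) that did not pass.

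Of 19 genes that had also been assayed by qPCR, 18 were tested on the arrays, 0 were called and IGG1C alone had an unadjusted p under 0.05 over all cows. Several had wide horn differences without a common direction. The secreted granin CHGA ran from -1.78 in RB 1 to 1.19 in RB 3 (mean -0.05 ± 0.30, SE), the cyclic nucleotide-gated channel CNGA1 from -2.43 in non-RB 3 to 3.62 in non-RB 2 (0.06 ± 0.53, SE) and the glutathione transferase GSTA3 from -0.73 in non-RB 1 to 4.18 in RB 1 (0.83 ± 0.52, SE). The interferon-induced RNA sensor IFIH1 was 2.34 in RB 1 and -1.80 in non-RB 2, with 0.12 to 0.25 in 5 of the other cows (0.18 ± 0.31, SE). CPXM2 was -0.08, FAM83D -0.21, KCNA2 0.32, KLHL24 0.18, KRT35 -0.02, PIPOX 0.41, PLEKHA5 -0.12, PRSS2 -0.18, SLC39A2 -0.29 and THBS4 0.04. For several of these genes the difference between the arrays of a single cow was larger than the mean difference. Each horn of a cow was read by a single array, so the part of the array in such a difference was not tested.

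The horn difference in ICAR was finally set against that in CAR of the same cows. limma called 0 of 12768 probes (0%, smallest adjusted p 1), and 129 probes had an unadjusted p under 0.05, 89 with a larger and 40 with a smaller value in ICAR. The interval of the median probe reached 0.60 to either side. No gene can therefore be said to differ between the horns in ICAR only. The contralateral CAR array of non-RB 2 held 351 outlier spots, with an SD of 1.32 over 100 copies of the same probe. The CAR pairs of non-RB 1, non-RB 2, non-RB 3 and RB 1 each lay on different slides. Without the pair of non-RB 2, 0 probes were called.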

How the data were processed

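Total RNA of each sample was labelled with Cy3 and hybridised to a bovine 60-mer Agilent array, scanned and read with Agilent Feature Extraction 9.5, per the labels. The deposited value table holds log2 values that the authors scaled to the 75th percentile of each array. The deposited scanner files hold intensity per spot and were used for the background and outlier flags and for the normexp alternative (offset 50). The value table was set against the scanner files and differed from them by a constant per array. Tested probes had a signal well above background on 4 or more of the 16 ICAR arrays and both horns measured in 3 or more cows of each group (12868, and 12768 in both compartments). A symbol could be given to 6450 of 15208 probes, 277 of them through the study's probe list, and no genome was used. Spots flagged as outliers were left out, so a few probes lack a cow. Horn differences were fitted with limma 3.58.1 in R 4.3.3 (cow as block, groups with 1 shared spread, eBayes, Benjamini-Hochberg threshold 0.05). Single genes were also tested by exact sign-flip or label permutation (2-sided). Deviations of the 2 horns of a label number from their group means correlated at 0.318 to 0.634 in all 8 pairs, so the numbers were taken as cows. Mean values with other cows were -0.22 to -0.0879, but taking deviations from group means pushes these below 0 when the own value is positive. As 7 of the 8 pairs shared a slide and a scan, this check cannot tell cow from slide there. The pair of non-RB 1, on slides 3 and 1, had 0.358. Named genes were, for 1 probe per gene, the 12 (all cows) or 5 (each group, and RB minus non-RB) of smallest unadjusted p in each direction, the qPCR genes, and list members with an unadjusted p under 0.05. One leading gene of the higher side over all cows is not reported here. The comparison, lists and rules were chosen with earlier results of these data known. Alternatives were quantile normalization, normexp, other filters, slide as block, no block, the methods' t-test, array weights, groups fitted alone, and leaving out cows. Leaving out the pairs of non-RB 1 and 2 together, centring each cow on its median, and normexp without non-RB 1 were chosen after seeing the data. The fit was tested on simulated data.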

Additional observations from a re-analysis of the deposited data

Results flagged for a closer look

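A set of 25 horn differences, more than the 23 leading genes, was looked at for 1 cow far from the other 7. Of these 3 had one, all of them in leading genes. Chance flags about 1 in 20 groups. MLX had -0.28 in RB 1 while the other cows lay between 0.53 and 0.91. GMEB1 had 1.87 in non-RB 1, whose contralateral array stood apart, and at most 0.83 elsewhere. SCD had -1.70 in non-RB 2, whose ipsilateral array held 25 outlier spots, and at least -0.59 elsewhere.

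In 6 of the named genes every non-RB cow differed in one direction and every RB cow in the other. Such a split fixes the exact permutation p of the group difference at 0.0286, the smallest that 4 against 4 cows allow. As the genes were picked for the split, this p is no further test. GOT1L1, DRC1, GALNT6 and EGR1 had also been named by their p in this comparison. The limma adjusted p was 0.615 or more. RB minus non-RB was 2.16 in GOT1L1, 2.26 in DRC1, 1.92 in GALNT6, -0.90 in EGR1, 2.35 in FMO2 and 2.61 in BPIFB1. Under normexp background correction without non-RB 1 it was 0.30 in GOT1L1, 0.99 in DRC1, 0.70 in GALNT6 and -0.47 in EGR1. Over all probes, 0.92% had the pattern of DRC1 and 0.621% that of EGR1. Under normexp background correction BPIFB1 and FMO2 kept the split of the cows by group, and the others lost it. GOT1L1 had -0.097 in RB 1, DRC1 0.12 in non-RB 4, GALNT6 0.0062 in non-RB 2 and EGR1 0.18 in RB 4.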

How the results depend on the processing

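No probe was called in any comparison under the alternatives run, except with array weights, which called 187 over all cows and 144 in RB cows. Counts at an unadjusted p under 0.05 moved more. Over all cows they were 88 with normexp, 75 with the methods' t-test, 2445 with array weights, 706 without non-RB 1 and 2, 1742 with normexp without non-RB 1, and 175 to 897 leaving out 1 cow. In non-RB cows they were 380, 92, 2032, 554 when fitted alone, 2611 with normexp without non-RB 1, and 720 to 1471 leaving out 1 cow. In RB cows they were 221, 180, 2819, 737 when fitted alone, 1021 without non-RB 1 and 2, 911 with normexp without non-RB 1, and 168 to 743 leaving out 1 cow. For RB minus non-RB they were 581 with normexp, 2092 with array weights, 1758 with normexp without non-RB 1, and 453 to 1462 leaving out 1 cow. Without the replicate block that pairs the horns of a cow they were 62, 174, 68 and 139 in the same order.

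With normexp ABCB1 had -0.000404, ARHGAP42 -0.0158, SLC26A10 -0.0998, ILRUN -0.0304, THBS4 -0.129 and CD3D -0.00709, in non-RB cows SLC26A10 -0.251, ABCB1 -0.201, CD38 -0.289 and IL22RA1 -0.0976, and in RB minus non-RB EGR1 0.201. With normexp without non-RB 1, SLC6A4 had 0.0898, BZW2 0.163, EPB42 0.0578, FAM83D 0.00551 and, in non-RB cows, GOT1L1 0.0721 and KCNAB1 0.229. Quantile normalization gave CHGA 0.0191 and THBS4 -0.0588. Array weights gave CNGA1 -0.382, CPXM2 0.0442, FAM83D 0.0339, PIPOX -0.271 and PRF1 0.117. Without non-RB 1 and 2, CNGA1 had -0.628, CPXM2 0.0732 and PIPOX -0.0772. Leaving out 1 cow gave CHGA -0.29 to 0.206, CNGA1 -0.538 to 0.469, CPXM2 -0.274 to 0.165, FMO2 -0.0357 to 0.533, IFIH1 -0.0952 to 0.415, KRT35 -0.336 to 0.138, BPIFB1 -0.00483 to 0.649, PLEKHA5 -0.281 to 0.0136 and THBS4 -0.198 to 0.195. The cause was not tested. Under normexp without non-RB 1, 24 of 49 values over all cows, 7 of 10 in non-RB cows, 7 of 10 in RB cows and 4 of 10 in RB minus non-RB moved by more than 1.5 times or changed sign. Dim probes near background limit what can be read from ILRUN, MAEL, GOT1L1 and SLC26A10.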
